A study of Vitis vinifera with 27 samples.

Results

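Leaf moving at véraison (LM-V) was compared with the non-treated control (C) at E-L 37, the stage at which Cabernet Sauvignon berries were nearly but not fully ripe. The comparison held 6 of the 27 berry libraries of the series, 3 of LM-V and 3 of C, taken by their labels, and it covered every gene of the table. All groups were field-grown, own-rooted Cabernet Sauvignon vines of one vineyard and season. In LM-V the basal leaves of shoots with clusters, up to 6 of them, were tied aside and stayed on the vine. In LR-V (leaf removal at véraison) they were cut off, and in C they were left in place. Each library came from deseeded berries, 50 per replicate, of a separate set of 15 vines. A library was therefore a pool of berries in which skin and flesh were mixed, and fewer cells of a type could not be told apart from less RNA per cell.

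Berry ripening after véraison combines softening of the cell wall, accumulation of sugar and colour, and loss of the transcripts of the growing fruit. Xyloglucan, a glucan that ties cellulose microfibrils together, is built by xylosyltransferases in the Golgi and is cut and rejoined in the wall by xyloglucan endotransglucosylase/hydrolases (XTHs). Grape berries are also known for high levels of pathogenesis-related (PR) proteins as they ripen, among them chitinases, β-1,3-glucanases, thaumatin-like proteins and PR-10 proteins. Light on the cluster is known to act on flavonoid synthesis, with flavonol synthase (FLS) as its most light-sensitive step.

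Values were FPKM, fragment counts scaled to transcript length and library size, which allow levels of different genes to be compared per length. The 6 libraries each had between 16900 and 17471 genes at 1 FPKM or more, and the steps of their low values put their relative depths between 0.935 and 1. On the log2(FPKM + 1) scale they correlated across genes at 0.955 to 0.976 within groups and at 0.951 to 0.974 between groups. The 2 skin markers, VviMYBA1 and a UDP-glucose:flavonoid glucosyltransferase gene (VIT_216s0039g02230), were above 0 in all 6 libraries. They summed to 93.7, 109 and 78.0 FPKM in C replicates A, B and C. In LM-V the sums were 66.5, 58.3 and 72.2, each below every C library. Both are also genes of anthocyanin synthesis, so less skin could not be told apart from lower levels of these transcripts. Seed transcripts remained in some libraries: the 10 seed markers summed to 225 FPKM in LM-V replicate B, to 60.3 and 42.2 in LM-V replicates A and C, and to 68.0, 143 and 25.6 in C replicates A, B and C. One of the 10, the Lea14-A gene VIT_215s0046g02110, is itself among the genes called higher in LM-V. It held 48.7, 41.2 and 34.1 FPKM of these sums in LM-V replicates A, B and C, and 24.2, 19.4 and 15.7 in C. It thus made up most of the sums of LM-V replicates A and C and of C replicate C. The defining pair, a 2S albumin gene (VIT_219s0177g00090) and a vicilin gene (VIT_206s0004g03260), stood at 8.45 and 9.09 FPKM in LM-V replicate B. Both were at 0 in C replicate C.

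Of 19761 genes tested, 113 (0.572%) differed between LM-V and C at an adjusted p under 0.05, with 73 (0.369%) higher and 40 (0.202%) lower in LM-V. The genes that rose included 8 of xyloglucan enzymes and cellulose synthases, which build and remodel the cell wall, and 5 of calcium-binding and calcium-pumping proteins, with a chitinase gene furthest up. Those that fell included PR-1, the furthest down, β-1,3-glucanases, a chitinase, polyphenol oxidase and a 9S-lipoxygenase. Log2 fold changes of the 73 ran from 0.35 to 1.93 with a median of 0.91, and those of the 40 from −4.03 to −0.32 with a median of −0.84. In all 113 genes the 3 LM-V values lay on one side of the 3 C values. Over all tested genes, LM-V lay wholly above C in 4.64% and wholly below it in 13.6%. The median log2 fold change of all tested genes was −0.08, and it was −0.001 after median-of-ratios scaling, which gave 119 genes higher and 25 lower.

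**Figure D1:**
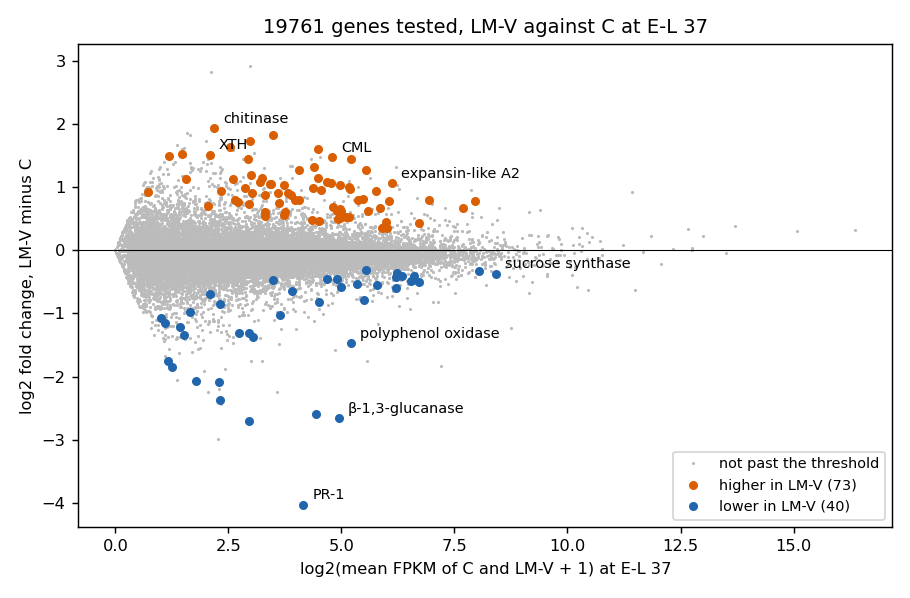
Each point is 1 of the 19761 tested genes, plotted by its level at E-L 37 (log2 of the mean FPKM of C and LM-V plus 1) and its log2 fold change, LM-V minus C. The 73 higher and 40 lower genes are coloured; the lowest, PR-1, stands at −4.03, and no higher gene passes 1.93.

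The calls leaned on single libraries. LM-V replicate B was the highest of the LM-V libraries in 56 of the 73 higher genes, against 29.4% of all tested genes, and LM-V replicate C was the lowest in 56 of them, against 28.3%. Without LM-V replicate B, 19 genes were called and 18 of them were among the 113. All 73 higher genes were still above C, with a median log2 fold change of 0.76. Replicate B is also the LM-V library with the most seed transcripts. With the mean level of the seed markers as a covariate 103 genes were called, 98 of them among the 113. That list includes the called Lea14-A gene. With the 2S albumin and vicilin genes alone as the covariate, a setting that was not planned, 116 genes were called, 103 of them among the 113. C replicate C was the lowest control in 15 of the 18 genes that fell by at least 1 on the log2 scale, against 35.7% of all tested genes. Without it 40 genes were called, 36 of them among the 113. A fit on the 6 libraries alone, which has fewer degrees of freedom, called 13 genes and shared 3 with the main result.

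Xyloglucan enzymes and cellulose synthases, as listed by annotation, made up 8 of the 73 higher genes and none of the lower ones. Of 94 such genes tested, 22 were higher with an unadjusted p under 0.05 and 7 lower, against 3.34% and 8.88% of all tested genes. The XTHs held 4 of the 8, out of 40 tested. Their median log2 fold change was 0.23, against −0.08 for all tested genes. All LM-V libraries were above all C libraries in 12 of the 40, against 4.64% of all tested genes. With 1 of the 6 libraries left out, the 8 calls ranged from 0, without LM-V replicate B, to 11, without LM-V replicate C. They fell to 4 with a pseudocount of 0.1, to 5 without a filter, with the replicate block and without trend and robust moderation, and to 0 in the fit of the 6 libraries alone, where the 4 XTH calls became 1, 2, 2, 2 and 0. Without LM-V replicate B the XTH median was 0.16.

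The 4 XTH genes that passed the test belong to one stretch of neighbouring gene models on scaffold VIT_211s0052. VIT_211s0052g01320 stood at 1.01, 1.04 and 1.42 FPKM in C replicates A, B and C and at 5.89, 7.05 and 3.17 in LM-V, a log2 fold change of 1.51 (SE 0.25, adjusted p = 0.00437). VIT_211s0052g01260, the most expressed of the 4, stood at 28.9, 23.2 and 24.2 FPKM in C and at 64.3, 94.6 and 40.1 in LM-V (log2 fold change 1.27, SE 0.23, adjusted p = 0.0111). In both genes the lowest LM-V library, replicate C, was well above the highest control. VIT_211s0052g01300 rose from 15.2 ± 2.55 to 34.3 ± 11.3 FPKM (SD, n = 3; log2 fold change 1.09, adjusted p = 0.0493). VIT_211s0052g01190, annotated as TCH4, which in Arabidopsis is known as a touch-induced XTH, rose by 0.96 on the log2 scale, from 14.7 ± 1.9 to 30.2 ± 8.5 FPKM (adjusted p = 0.0416). The stretch had 14 tested XTH genes, of which 11 were above 0 with a median log2 fold change of 1.02. The other 26 XTH genes, elsewhere in the genome, had a median of 0.11, and none was called. VIT_211s0052g01180 missed the threshold at 9.56, 8.41 and 6.62 FPKM in C against 19.5, 26.8 and 13.3 in LM-V (adjusted p = 0.0503). Where neighbouring genes of a family are alike in sequence, reads of 50 bases may be split between them. Their likeness was not measured here, so the share of each gene is uncertain.

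Xylosyltransferases and backbone synthases, which make hemicellulose in the Golgi, changed by less and with tighter replicates. Of 4 xyloglucan 6-xylosyltransferase genes, 2 rose. VIT_207s0005g00150 stood at 25.7, 30.4 and 30.1 FPKM in C and at 43.7, 40.6 and 40.8 in LM-V (log2 fold change 0.53, SE 0.11, adjusted p = 0.0204), and VIT_217s0000g06590 rose from 52.6 ± 6.17 to 71.8 ± 7.31 FPKM (0.44, SE 0.09, adjusted p = 0.0194). The other two were at 0.18 and 0.03 on the log2 scale and were not called. Neither of the 2 risers was called without C replicate C, LM-V replicate A or LM-V replicate B, where the list had no call. A β-mannan synthase gene of the cellulose synthase-like family, VIT_218s0001g08580, stood at 46.3, 41.4 and 43.0 FPKM in C and at 67.3, 82.6 and 61.6 in LM-V (0.67, SE 0.11, adjusted p = 0.00437). VIT_216s0039g02020, annotated as a xylan or mannan synthase, rose from 36.4 ± 1.91 to 57.2 ± 9.67 FPKM (0.63, adjusted p = 0.04). Among all 45 cellulose synthase and cellulose synthase-like genes these were the 2 called, and the median was −0.10.

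Other wall genes rose singly. An expansin-like A2 gene (VIT_203s0038g03430), of a family related to the wall-loosening expansins, stood at 46.0, 37.8 and 44.6 FPKM in C and at 90.3, 124 and 65.3 in LM-V (log2 fold change 1.06, SE 0.20, adjusted p = 0.0151). It was 1 of 13 expansins tested, whose median was −0.17. COBRA-like protein 7 (VIT_205s0077g01470), of a family known in Arabidopsis for cellulose deposition, rose from 22.6 ± 2.25 to 47.1 ± 11.5 FPKM (1.01, adjusted p = 0.00154) and remained called without LM-V replicate B (adjusted p = 0.0152). It was singled out after its values were seen and was 1 of 2 COBRA-like genes tested. The other was lower with an unadjusted p under 0.05 by limma, with all LM-V libraries below all C libraries. A pectinesterase gene (VIT_209s0002g00320), for an enzyme that removes methyl groups from pectin, stood at 3.47, 4.31 and 3.61 FPKM in C against 8.11, 12.3 and 6.05 in LM-V (0.99, adjusted p = 0.0357). It was the only call among 78 pectin enzymes, whose median was −0.04. A β-galactosidase gene (VIT_209s0002g02120), singled out after its values were seen, rose with them by 0.65 on the log2 scale (adjusted p = 0.0377). Another gene outside the lists, VIT_218s0001g14780, was called lower (log2 fold change −1.02, adjusted p = 0.0272). Its KEGG entry is an α-L-fucosidase, while its GO functions name a lipase.

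**Figure D2:**
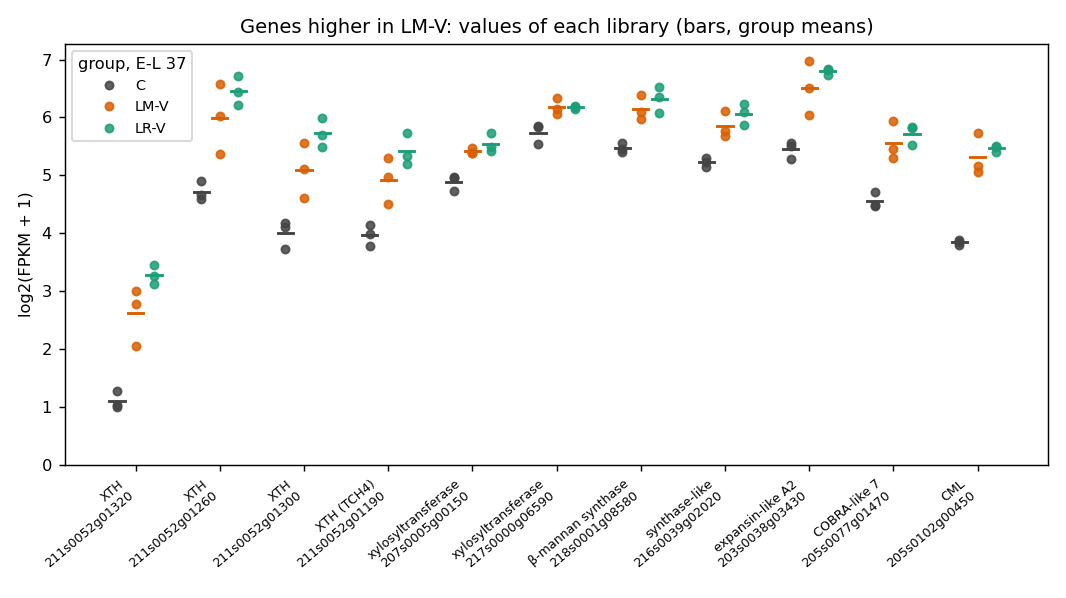
Points are single libraries of C, LM-V and LR-V at E-L 37 on the log2(FPKM + 1) scale for 10 cell wall genes and 1 calcium-binding protein gene, with bars at the mean of each group (n = 3); gene labels leave out the VIT_ prefix. All 3 LM-V points lie above all 3 C points in each of the 11 genes, and LM-V spreads more widely than C in the XTHs.

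Calmodulin-like and calcium-pumping genes, a group chosen after the values were seen, held 5 of the 73 higher genes and none of the 40 lower ones. Of 48 calmodulin-like (CML) genes tested, 3 rose and none fell, 11 had all LM-V libraries above all C libraries, and the median log2 fold change was 0.17. Over all tested genes 0.369% rose and 4.64% lay wholly above C. VIT_205s0102g00450 stood at 13.4, 12.9 and 13.7 FPKM in C and at 35.0, 52.4 and 32.3 in LM-V, which gave the smallest adjusted p of the comparison (log2 fold change 1.48, SE 0.17, adjusted p = 0.000323). It was the single gene of the 113 that passed under each change of scaling, pseudocount, filter, block, covariate list or moderation, in the fit of the 6 libraries alone and without any single library. VIT_217s0000g02480 rose from 158 ± 7.16 to 256 ± 44.8 FPKM (0.67, adjusted p = 0.00629), and VIT_206s0080g00450 (CML48) from 9.37 ± 2.18 to 18.1 ± 4.68 (0.87, adjusted p = 0.0437). Calcium-transporting ATPases, which pump the ion out of the cytosol, had 2 of 26 genes higher. These were VIT_200s0463g00030, at 4.97, 5.04 and 4.51 FPKM in C and 11.8, 13.6 and 9.18 in LM-V (1.08, adjusted p = 0.0176), and VIT_200s0691g00010 (0.74, adjusted p = 0.0161). Without LM-V replicate B 1 CML gene and no ATPase gene was called, and without C replicate B or C 2 CML genes and no ATPase gene. Outside this group, VIT_205s0020g00830, with a GO function of calmodulin-dependent protein kinase, was called lower (−0.65, adjusted p = 0.0283). VIT_207s0129g00210 and VIT_210s0003g00410, with calmodulin binding among their GO functions, were called higher (0.91 and 1.05).

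Regulators that rose belonged to several families. A gene of the AP2/ERF family (VIT_216s0100g00380), whose closest KEGG entry is the Arabidopsis cold-response factor CBF3, stood at 9.87, 3.76 and 0.83 FPKM in C and at 13.3, 20.6 and 12.9 in LM-V (log2 fold change 1.83, SE 0.38, adjusted p = 0.0256). Its controls covered a wide range, yet did not overlap with LM-V. It was the only call among 92 AP2/ERF genes tested, and no AP2/ERF gene rose without C replicate B or C or LM-V replicate A or B. Among 53 WRKY genes, a family of defence and senescence regulators, 2 rose: the WRKY22-like VIT_202s0025g00420, from 7.45, 8.81 and 6.85 FPKM in C to 17.3, 17.7 and 15.4 in LM-V (1.04, adjusted p = 0.0392), and VIT_200s0463g00020 (0.52, adjusted p = 0.0166), which carries both a WRKY20-like name and a DELLA annotation. Without C replicate C or LM-V replicate A or B neither was called. The TIFY 5A-like gene VIT_210s0003g03810, of the family of jasmonate-response repressors, stood at 16, 12.6 and 9.98 FPKM in C and 32.3, 33.3 and 23.3 in LM-V (1.15, SE 0.17, adjusted p = 0.00248). It was the only call among 60 jasmonate genes and remained called without LM-V replicate B (adjusted p = 0.0308). A type-A response regulator gene of cytokinin signalling (VIT_213s0067g03070) rose by 0.60 (adjusted p = 0.0419), while a gene annotated as a cytokinin-N-glucosyltransferase (VIT_213s0019g03120) fell by 0.86 on the log2 scale (adjusted p = 0.0464). No gene on the NAC, MYB, bHLH, bZIP or heat stress factor lists was called by limma. Outside these lists, VIT_210s0003g01730 (0.81, adjusted p = 0.00296) and VIT_208s0058g01100 (0.61, adjusted p = 0.0432) rose. Their KEGG entry names the bZIP factor TGA, while their GO functions name a ubiquitin-protein ligase. With an unadjusted p under 0.05, MYB had 2 of 78 genes higher and 13 lower, and bZIP had none of 40 higher and 6 lower. These are 16.7% and 15% lower, against 8.88% of all tested genes.

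The largest rise belonged to a chitinase gene. VIT_205s0094g00360 stood at 1.20, 0.68 and 0.49 FPKM in C and at 5.34, 10.3 and 3.30 in LM-V (log2 fold change 1.93, SE 0.34, adjusted p = 0.00901). A Lea14-A gene (VIT_215s0046g02110), of the late embryogenesis abundant proteins and thus on the list of seed markers, stood at 24.2, 19.4 and 15.7 FPKM in C and at 48.7, 41.2 and 34.1 in LM-V (1.03, adjusted p = 0.0252). Unlike the seed storage genes, it was not highest in LM-V replicate B. A GDSL esterase/lipase gene (VIT_213s0106g00250), which KEGG names a carotenoid desaturase, rose from 0.87 ± 0.545 to 3.04 ± 0.845 FPKM (1.13, adjusted p = 0.0379). A lipoxygenase gene of the 13S type, VIT_209s0002g01080, the branch that leads to jasmonate, stood at 17.8, 13.9 and 8.42 FPKM in C and 25.4, 27.6 and 26.0 in LM-V (0.98, adjusted p = 0.0357).

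Many of the strongest risers carry no useful annotation. Among the 15 largest rises are VIT_204s0008g06150 and its neighbour VIT_204s0008g06140. The first stood at 3.30, 2.63 and 1.46 FPKM in C and 10.1, 18.4 and 5.59 in LM-V (1.74, adjusted p = 0.0151). The second was listed at 0, 0.43 and 0 in C and 2.67, 3.55 and 0.93 in LM-V. VIT_201s0011g06565 was low but tight, at 0.51, 0.41 and 0.38 FPKM in C and 2.80, 3.70 and 2.95 in LM-V (1.53, SE 0.20, adjusted p = 0.000825). VIT_207s0005g01140 rose from 18.7 ± 4.51 to 53.0 ± 13.2 FPKM (1.45, adjusted p = 0.00296) and VIT_213s0019g01130 from 8.72 ± 1.02 to a mean of 22.8 (1.27, adjusted p = 0.000454). The remaining unannotated members of the 15 are VIT_206s0009g02505, VIT_218s0001g06020, VIT_218s0001g06180, VIT_219s0090g00600 and VIT_204s0008g05510, with log2 fold changes between 1.20 and 1.64. In all, 33 of the 113 called genes had neither a protein name, a KEGG orthology nor a GO function.

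PR proteins held 4 of the 40 lower genes and 1 of the 73 higher ones, the chitinase above, out of 87 tested. With an unadjusted p under 0.05 by limma, 17 of the 87 (19.5%) were lower and 6 (6.9%) higher, against 8.88% and 3.34% of all tested genes. The list median was −0.04. After median-of-ratios scaling 13 were lower and 10 higher at that level, with a median of 0.03. PR-1 (VIT_203s0088g00710), a secreted antimicrobial protein used as a marker of salicylate responses, fell furthest. It stood at 58.0, 36.4 and 5.23 FPKM in C replicates A, B and C and at 0.94, 0.62 and 0 in LM-V (log2 fold change −4.03, SE 0.68, adjusted p = 0.00629). Without C replicate C, the lowest control, the log2 fold change was −5.004 (adjusted p = 0.000298). The other 7 PR-1 genes tested were not called, and 5 of the 8 had a log2 fold change above 0.

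Glucanases and chitinases cut fungal wall polymers. The β-1,3-glucanase gene VIT_205s0077g01150 stood at 78.0, 54.1 and 25.3 FPKM in C and at 8.66, 4.87 and 7.04 in LM-V (log2 fold change −2.66, SE 0.59, adjusted p = 0.0432). A second, VIT_206s0061g00120, stood at 6.72, 5.98 and 1.41 FPKM in C and at 0.27, 0.36 and 0 in LM-V (−2.08, SE 0.31, adjusted p = 0.00248). These were the 2 called of 29 β-1,3-glucanase genes, whose median was −0.01. The chitinase gene VIT_215s0046g01570 stood at 8.98, 10.1 and 2.07 FPKM in C and 1.07, 0 and 1.17 in LM-V (−2.08, adjusted p = 0.0275), so that among 29 chitinase genes 1 rose and 1 fell. With 1 library left out, between 2 and 4 PR genes were called lower, and the count was 2 without C replicate A or B or LM-V replicate A or B. In each of the 3 genes above C replicate C was the lowest control and still lay above every LM-V library.

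PR-10 genes, a tandem family of small ribonuclease-like proteins, lay lower in LM-V without passing the test. This group was singled out after its values were seen. VIT_205s0077g01580 stood at 612, 621 and 562 FPKM in C and at 297, 251 and 221 in LM-V (log2 fold change −1.23, adjusted p = 0.12), and VIT_205s0077g01570 at 115, 93.5 and 88.1 against 42.6, 32.8 and 33.9 (−1.42, adjusted p = 0.124). The median of the 8 PR-10 genes was −1.13. By limma 4 of them (50%) were lower with an unadjusted p under 0.05, against 8.88% of all tested genes. Of 10 thaumatin and osmotin genes, none was called by limma, while 2 were higher and 2 lower with an unadjusted p under 0.05. Over all tested genes 3.34% were higher and 8.88% lower at that level. VIT_202s0025g04300 stood at 1195, 1801 and 1268 FPKM in C and 841, 1075 and 911 in LM-V (−0.57, adjusted p = 0.709).

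Oxidative enzymes and a transporter fell too. Polyphenol oxidase (VIT_200s0480g00030), which browns cut fruit by oxidising phenolics, stood at 67.9, 58.5 and 34.8 FPKM in C and 14.9, 15.3 and 25.3 in LM-V (log2 fold change −1.47, SE 0.34, adjusted p = 0.0493). A 9S-lipoxygenase (VIT_214s0128g00780) stood at 13.5, 12.3 and 7.05 FPKM in C and 4.49, 4.01 and 2.22 in LM-V (−1.38, adjusted p = 0.0409). Lipoxygenases thus held 1 riser of the 13S type and 1 faller of the 9S type among 8 tested. Neither was called with a pseudocount of 0.1, without a filter or without trend and robust moderation. The same held in the fit of the 6 libraries alone and without C replicate B or any single LM-V replicate. A probable chloroplast anion transporter (VIT_208s0007g01810) fell from 3.18 ± 1.58 to 0.587 ± 0.186 FPKM (−1.34, adjusted p = 0.0106), and an oxygenase gene, VIT_203s0097g00460, from 8.49 ± 1.12 to 2.88 ± 0.991 (−1.31, adjusted p = 0.0114).

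**Figure D3:**
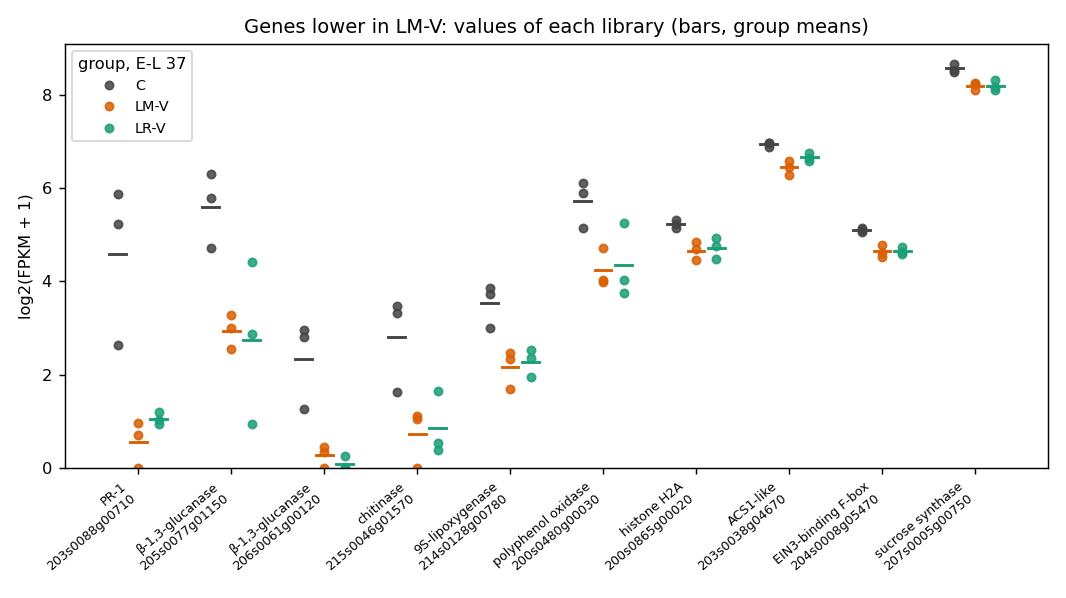
Points are single libraries of C, LM-V and LR-V at E-L 37 on the log2(FPKM + 1) scale for 10 genes that fell in LM-V, with bars at group means (n = 3); gene labels leave out the VIT_ prefix. C replicates spread widely in the defence genes on the left, where 1 control is far below the others, and closely in histone H2A, the ethylene genes and sucrose synthase on the right.

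Other genes fell by little, with close replicates. Both genes of a histone H2A pair, VIT_200s0865g00020 and VIT_200s0865g00030, fell. The first stood at 34.7, 39.0 and 36.8 FPKM in C and at 27.6, 20.9 and 24.9 in LM-V (log2 fold change −0.58, SE 0.12, adjusted p = 0.0204), and the second fell by 0.55 on the log2 scale (adjusted p = 0.0209). Histones package DNA and are made mainly in dividing cells. Of 46 histone genes tested, 20 were lower with an unadjusted p under 0.05 and none higher, 26 had every LM-V library below every C library, and the median was −0.29. Over all tested genes 8.88% were lower at that level and 13.6% lay wholly below C. After median-of-ratios scaling 13 of the 46 were lower and the median was −0.21. No histone gene was called without C replicate B or C or LM-V replicate B. In the ethylene list 2 of 52 genes fell: VIT_203s0038g04670, named after the ethylene precursor synthase ACS1, from 126, 125 and 117 FPKM in C to 95.9, 87.2 and 77.7 in LM-V (−0.50, SE 0.08, adjusted p = 0.00368), and an EIN3-binding F-box gene, VIT_204s0008g05470, a brake on ethylene signalling (−0.46, adjusted p = 0.0172). Sucrose synthase (VIT_207s0005g00750), which splits sucrose in sink tissues, stood at 407, 376 and 363 FPKM in C and 309, 275 and 304 in LM-V (−0.37, SE 0.08, adjusted p = 0.0464). It was the single call among 52 genes of sugar transport and sucrose metabolism.

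Unannotated genes were among the deepest falls too. VIT_206s0004g07550 stood at 22.3, 12.6 and 3.61 FPKM in C and at 1.39, 0.87 and 0.18 in LM-V (log2 fold change −2.70, SE 0.48, adjusted p = 0.00923). VIT_218s0166g00250 stood at 49.9, 20.9 and 38.8 FPKM in C and 5.94, 5.70 and 3.41 in LM-V (−2.59, adjusted p = 0.00592), and here C replicate B, not C, was the lowest control. VIT_211s0016g01580 fell by 2.37 on the log2 scale (adjusted p = 0.00248), VIT_218s0001g15220 by 1.31 and VIT_214s0030g01890 by 1.22. Both VIT_201s0011g01770 and VIT_209s0054g01490 were listed at 0 in all LM-V libraries. In C the first stood at 1.99, 4.25 and 1.98 FPKM and the second at 2.88, 3.07 and 1.43.

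No gene of phenolic synthesis was called by limma. The 16 families from phenylalanine ammonia-lyase (PAL) to stilbene synthase held 159 tested genes, of which 2 were higher and 18 lower with an unadjusted p under 0.05, and 14 of the 16 family medians were below 0. Over all tested genes 3.34% were higher and 8.88% lower at that level, with a median of −0.08, so the lower side was favoured in general. The 25 pathway and regulator genes that the study follows by identifier are given here whether or not they changed, and 21 of them passed the filter on low values. Their 95% confidence intervals, not adjusted for the number of genes, left out 0 in 6 genes, 5 of them on the lower side.

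At the entry of the pathway, VviPAL1 stood at 19.97, 26.3 and 23.2 FPKM in C and 15.3, 14.6 and 19.8 in LM-V (log2 fold change −0.47, adjusted p = 0.441). VviPAL2 stood at 12.6, 6.23 and 4.62 FPKM against 2.13, 3.30 and 1.32 (−1.38, 95% confidence interval −2.40 to −0.36, adjusted p = 0.245). The 2 groups did not overlap in either gene, and LM-V lay wholly below C in 13.6% of all tested genes. VviPAL7 stood at −0.47 on the log2 scale (adjusted p = 0.29). VviPAL15 and its neighbours VIT_216s0039g01110, VIT_216s0039g01120 and VIT_216s0039g01130 had log2 fold changes between 0.58 and 0.91, with adjusted p from 0.332 to 0.658. Reads may be split between neighbouring genes of a family, and the likeness of these genes was not measured here. A 4-coumarate:CoA ligase gene (VIT_206s0061g00450) stood at 26.5, 31.6 and 27.1 FPKM in C and 31.5, 27.6 and 31.0 in LM-V (0.08, interval −0.13 to 0.29).

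Of the flavonoid hydroxylases, VviF3H1 stood at 98.9, 115 and 105 FPKM in C and 80.9, 58.5 and 101 in LM-V (−0.44, adjusted p = 0.402), VviF3H2 was at −0.16 and VIT_213s0047g00210, near 1 FPKM or below, at 0.04. VviF3'H, which sets the B-ring for cyanidin-type pigments, was at −0.32 (interval −0.61 to −0.04, adjusted p = 0.334). VviF3'5'H, for the delphinidin type, stood at 75.9, 117 and 79.1 FPKM in C against 71.5, 53.2 and 75.5 in LM-V (−0.43, adjusted p = 0.579). Of 17 F3'H and F3'5'H genes tested, none was called. With an unadjusted p under 0.05 by limma, 6 (35.3%) were lower and 0 higher, against 8.88% and 3.34% of all tested genes. LM-V lay wholly below C in 7 of the 17, against 13.6% of all tested genes. The family median was −0.375, or −0.285 after median-of-ratios scaling.

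The flavonol step showed no detectable change at this stage. VviFLS4, the light-responsive flavonol synthase gene, stood at 7.53, 8.05 and 4.06 FPKM in C and 3.46, 3.09 and 7.24 in LM-V (log2 fold change −0.46, interval −1.05 to 0.13, adjusted p = 0.537). VviFLS3 was the most expressed of the family, at 35.7, 30.3 and 39.9 FPKM in C and 31.9, 28.4 and 38.4 in LM-V (−0.10, interval −0.55 to 0.35). VviFLS1 and VviFLS2 were listed at 0 in all 6 libraries. VIT_202s0012g00390, VIT_202s0012g00400, VIT_202s0012g00450 and VIT_213s0067g01020 had log2 fold changes from −0.56 to −0.01 with adjusted p of 0.453 or more, and VIT_208s0007g00750 was too low to be tested. Of the regulators, VviMYBF1, which activates flavonol synthesis, was too low as well, at 0.34 FPKM or less. VviMYBPA1, of the tannin branch, stood at 17.0, 16.5 and 20.5 FPKM in C and 9.47, 8.50 and 26.1 in LM-V (−0.44, adjusted p = 0.745). VviMYBA1, the anthocyanin switch, stood at 20.1, 22.3 and 12.4 FPKM in C and 7.85, 9.83 and 13.6 in LM-V (−0.74, interval −1.23 to −0.26, adjusted p = 0.18), and its groups overlapped in 1 library.

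**Figure D4:**
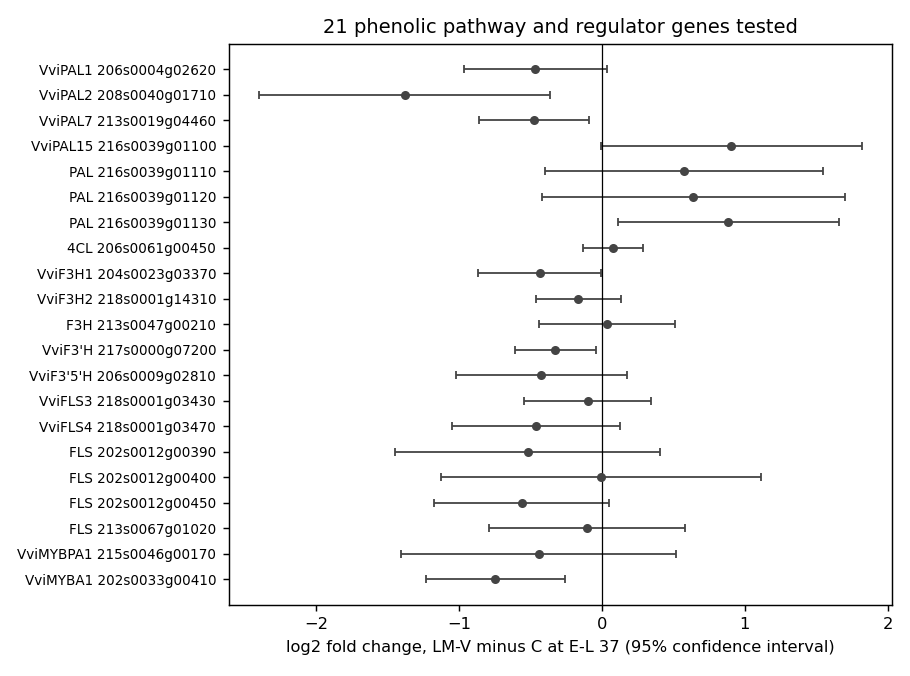
Points are log2 fold changes, LM-V minus C at E-L 37, with 95% confidence intervals from the limma fit (not adjusted), for the 21 phenolic pathway and regulator genes that were tested; labels leave out the VIT_ prefix. The PAL genes on VIT_216s0039 lie right of 0 and most others left of it, and none passes an adjusted p of 0.05.

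Lists with no call included heat shock proteins, photosystem and light-harvesting proteins, light signalling, auxin, abscisic acid, brassinosteroid, aquaporin and ribosomal protein genes. For photosystem and light-harvesting genes, 2 of 76 were higher and 2 lower with an unadjusted p under 0.05 by limma, and the median was −0.02. Among 92 heat shock protein genes 1 was higher and 1 lower at that level. Ribosomal protein genes, which build the translation machinery, had 5 of 351 higher and 34 lower, the latter 9.69% and near the 8.88% of all tested genes. In total 17 of the 56 lists had a called member.

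The called genes were then followed over ripening. Every one of the 73 higher genes had a higher mean in C at E-L 36 than in C at E-L 37, and every one of the 40 lower genes a lower one. In 68 of the 73 and in 30 of the 40, the LM-V mean at E-L 37 lay between the C means of E-L 36 and E-L 37. Since the controls at E-L 37 enter both sides of that description, C at E-L 36 and 38 gave the separate view. Between those stages 69 of the 73 higher genes fell in C at an adjusted p under 0.05 and none rose, against 21.5% of all tested genes that fell and 32.4% that rose. The median log2 change of the 73 from E-L 36 to 38 was −2.43, against 0.14 for all tested genes. Of the 40 lower genes, 25 rose in C and 2 fell, with a median of 0.67. After median-of-ratios scaling 70 of the 73 fell and 24 of the 40 rose, against 26.8% falling and 25% rising over all tested genes. Berries were assigned to E-L stages by the study, and how far each group had ripened at the sampling was not tested here.

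Single genes show the same order. The XTH gene VIT_211s0052g01260 averaged 110, 25.4 and 8.89 FPKM in C at E-L 36, 37 and 38, and 119, 66.3 and 6.81 in LM-V. The CML gene VIT_205s0102g00450 averaged 94.1, 13.3 and 3.67 in C against 96.0, 39.9 and 3.69 in LM-V. In both genes LM-V and C were close at the stages before and after. PR-1 ran the other way, at 0.183, 33.2 and 11.1 FPKM in C and 0.2, 0.52 and 1.31 in LM-V.

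**Figure D5:**
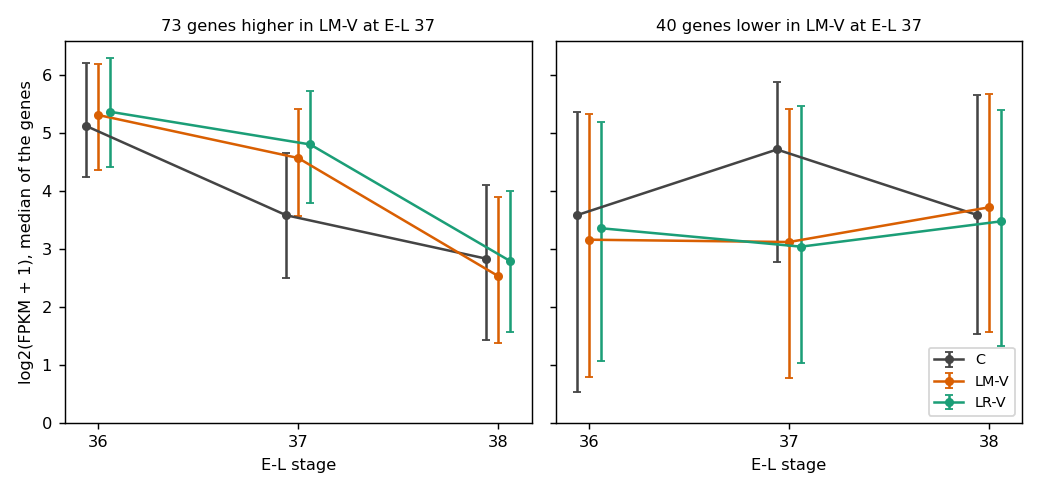
Medians over the 73 higher (left) and 40 lower genes (right) of the group mean log2(FPKM + 1) are plotted by E-L stage for C, LM-V and LR-V; bars span the middle 50% of the genes, and the genes were chosen on C and LM-V at E-L 37. The left medians of C fall from 5.12 through 3.58 to 2.83, with LM-V at 5.31, 4.57 and 2.53.

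The same comparison was made at the stages before and after. At E-L 36 it called 14 genes (0.0708%), none of them among the 113, and at E-L 38 it called 1877 (9.50%). At E-L 36, 53 of the 73 higher genes were above C and 15 of the 40 lower genes below it. Their median log2 fold changes there were 0.105 and 0.043, against −0.014 for all tested genes. At E-L 38, 33 of the 73 were above C and 21 of the 40 below it. Those 2 comparisons have their own control libraries. The 16 genes called at both E-L 37 and E-L 38 were 14.2% of the E-L 37 calls and 0.852% of the E-L 38 calls. Only 5 of the 16 kept their direction. The β-mannan synthase gene VIT_218s0001g08580 was higher at both stages (16.1 FPKM in C and 23.5 in LM-V at E-L 38). PR-1, polyphenol oxidase, VIT_211s0016g05540 and VIT_219s0090g01790 were lower at both, PR-1 by 2.39 and polyphenol oxidase by 1.10 on the log2 scale at E-L 38. In the other 11 the direction turned. TIFY 5A-like stood at −0.85 (adjusted p = 0.00256) and WRKY22-like at −0.87 (adjusted p = 0.0176) at E-L 38, after having risen at E-L 37. For VIT_206s0004g07550 the mean of C was 12.8 FPKM and that of LM-V 0.813 at E-L 37, whereas one stage later C averaged 0.243 and LM-V 21.9.

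Tested as a difference of effects, LM-V minus C at E-L 37 differed from that at E-L 36 in 8 genes (0.0405%) and from that at E-L 38 in 752 (3.81%; 279 with the larger value at E-L 37 and 473 with the smaller, or 326 and 361 after median-of-ratios scaling). The 8 became 0 after median-of-ratios scaling, with a pseudocount of 0.1, without a filter and without trend and robust moderation. Among the 113, 5 and 65 genes passed these tests and the others did not, but the same E-L 37 libraries had chosen them. VIT_205s0102g00450 passed both, with a difference of 1.45 on the log2 scale to E-L 36 (adjusted p = 0.0445) and of 1.48 to E-L 38 (adjusted p = 0.00136).

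LR-V, in which the leaves were cut off, was compared with the same 3 control libraries at E-L 37 and differed from them in 991 genes (5.01%). The values of the 2 treatments are therefore given side by side only. The 3 LR-V libraries, in the order A, B and C, held 63.2, 697 and 301 FPKM of seed markers, more in 2 of them than in any C or LM-V library, and their part in these values was not tested. The 73 higher genes had a median log2 fold change of 0.91 in LM-V and 1.01 in LR-V, and the 40 lower genes −0.84 and −0.82. VIT_211s0052g01320 averaged 1.16 FPKM in C, 5.37 in LM-V and 8.75 in LR-V, the CML gene VIT_205s0102g00450 averaged 13.3, 39.9 and 43.2, and PR-1 averaged 33.2, 0.52 and 1.08. LM-V minus LR-V was called by limma in 0 genes (0%), while 1387 (7.02%) had an unadjusted p under 0.05. Over the 113 genes this difference ran from −1.03, for the chitinase VIT_205s0094g00360 (95% confidence interval −1.74 to −0.33), to 0.89, with a median half-width of the interval of 0.35 on the log2 scale. For VIT_205s0102g00450 the interval was −0.50 to 0.21 and for PR-1 it was −1.91 to 0.91, so differences of those sizes between the treatments were not detectable here.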

How the data were processed

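Berry RNA was sequenced by the authors as single reads of 50 bases on an Illumina instrument, aligned to the grapevine V2 genome (Bowtie2 2.2.5 in the submitters' processing notes) with up to 2 mismatches, and deposited as FPKM per gene, to 2 decimals, for 28940 genes. FPKM keeps no read counts, so no count model was run. Genes with at least 1 FPKM in at least 3 of the 27 libraries (19761) were tested with limma 3.58.1 (R 4.3.3) on log2(FPKM + 1), in a model of 9 group means with trend and robust moderation. The pseudocount of 1 shrinks the fold changes of genes at low levels. P-values were Benjamini-Hochberg adjusted over all tested genes, with a threshold of 0.05. Replicates were separate sets of vines. The study's NOISeq rule was rebuilt as an alternative. Named genes were the 15 largest rises and 15 largest falls with non-overlapping groups and a mean of 1 FPKM in the higher group, up to 3 called genes per list, the phenolic genes followed by the study, and 2 seed genes. Members and lists were chosen with earlier results of these data known. The AP2/ERF list was extended, and the calcium, COBRA-like, PR-10, histone and stage-to-stage views added, after values were seen. Gene families were taken from the protein names, first KEGG entries and GO functions in the table. Names of RefSeq proteins (assembly ASM3070453v1) matched 6982 genes. On simulated data of this comparison with 19761 genes, 25 of 67 genes changed by 0.5 on the log2 scale were recovered. Of those changed by 1, 52 of 67 were recovered, and of those changed by 2, 64 of 66, with 8 false calls in 149. The simulated noise was independent between genes, and only genes with a mean of at least 2 FPKM were changed. Deviations that many genes of a library share, as seen here, were not simulated, so these rates do not carry over to the real data.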

Additional observations from a re-analysis of the deposited data

Results flagged for a closer look

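Among the named genes, 34 tests found that the LM-V effect at E-L 37 differed from the effect at another stage by limma, each as a difference of log2 fold changes with an adjusted p under 0.05. The genes were chosen on the E-L 37 libraries that enter the test, so the number of such tests carries no weight.

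Against E-L 36, the difference was 1.45 for VIT_205s0102g00450 (CML), −2.80 for VIT_211s0016g01580 and −2.61 for VIT_209s0054g01490, the last listed at 0 in LM-V.

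Against E-L 38, the differences of the higher genes were 3.38 for VIT_218s0001g06020, 2.62 for VIT_207s0005g01140, 2.56 for VIT_216s0100g00380 (AP2/ERF), 2.23 for VIT_218s0001g06180, 2.201 for VIT_213s0019g01130, 2.14 for VIT_204s0008g06150, 1.999 for VIT_210s0003g03810 (TIFY 5A-like), 1.91 for VIT_202s0025g00420 (WRKY22-like), 1.88 for VIT_204s0008g05510, 1.74 for VIT_205s0094g00360 (chitinase) and 1.61 for VIT_211s0052g01260 (XTH). They were 1.58 for VIT_201s0011g06565, 1.54 for VIT_206s0009g02505, 1.498 for VIT_204s0008g06140, 1.48 for VIT_205s0102g00450, 1.47 for VIT_215s0046g02110 (Lea14-A), 1.399 for VIT_211s0052g01320 (XTH), 1.41 for VIT_209s0002g01080 (13S-lipoxygenase), 1.25 for VIT_213s0106g00250, 1.19 for VIT_209s0002g00320 (pectinesterase), 0.81 for VIT_213s0067g03070 and 0.74 for VIT_200s0463g00020.

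For the lower genes the differences against E-L 38 were −6.83 for VIT_206s0004g07550, −3.88 for VIT_205s0077g01150 and −2.18 for VIT_206s0061g00120 (β-1,3-glucanases), −2.48 for VIT_211s0016g01580, −2.22 for VIT_208s0007g01810, −1.75 for VIT_209s0054g01490, −0.61 for VIT_200s0865g00020 (histone H2A) and −0.47 for VIT_203s0038g04670. VviFLS4 (VIT_218s0001g03470), which was not called at E-L 37, had a difference of −2.66 (adjusted p = 0.000501), with an effect of −0.46 at E-L 37 and of 2.202 at E-L 38.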

How the results depend on the processing

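The 113 calls stayed within 1.5 times of their number under 8 of the 10 planned settings that left no library out of the groups compared. The exceptions were 13 calls in the fit of the 6 libraries alone and 65 with a pseudocount of 0.1. Leaving out C replicate A, B or C gave 75, 40 and 40 calls, and leaving out LM-V replicate A, B or C gave 64, 19 and 129. The rebuilt NOISeq rule picked 158 genes (87 higher, 71 lower), 43 of them among the 113. Of the 113, 53 passed in every setting with all libraries in the model of 9 groups, and none changed direction in any fit. The 8 calls against E-L 36 became 0 after median-of-ratios scaling, with a pseudocount of 0.1, without a filter and without trend and robust moderation (1639, 1601, 1994 and 1651 genes with an unadjusted p under 0.05 by limma). They became 28 with a pseudocount of 5, 21 with a filter at 5 FPKM and 27 with the seed covariate. Without single libraries they ran from 0 to 18 (0 without C replicate A or B or LM-V replicate B, 15 without C replicate C), and the 752 against E-L 38 ran from 454 to 730, the fewest without C replicate B or LM-V replicate B. The cause was not tested. The count for LM-V minus LR-V was 0 in each fit by limma, beside 993 to 1999 genes with an unadjusted p under 0.05.

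Replicate letters were not treated as pairs in the main fit. Deviations of the same letter correlated at −0.02, 0.28 and 0.21 for A, B and C, and those of different letters at −0.312 to 0.175. The values for B and C thus lay above all those of different letters. With the letter as a replicate block 90 genes were called, 88 of them among the 113, and the 8 against E-L 36 became 13.

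Uncalled genes near 0 changed sign. VIT_202s0012g00400 was at 0.066 after median-of-ratios scaling, at 0.01 with the seed covariate and at 0.005, 0.081, 0.081 and 0.118 without single libraries. VIT_213s0047g00210 was at −0.096 without C replicate C and −0.009 without LM-V replicate C, VIT_213s0067g01020 at 0.016 without LM-V replicate C, and the 2S albumin gene VIT_219s0177g00090 at −0.006 without LM-V replicate B. The vicilin gene VIT_206s0004g03260 was at 0.019 with a pseudocount of 5 and at 0.287, 0.362 and 0.369 without single libraries.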
